A study of Drosophila melanogaster with 3 samples.

Results

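The Cpr genes of Drosophila melanogaster encode cuticle proteins, the structural proteins that bind chitin in the exoskeleton. Here they were all protein-coding genes of the Ensembl BDGP6 annotation whose name is Cpr followed by a digit, which gave 70 of 13968 protein-coding genes; the digits and letters of a name give the cytological band of the gene. Their start sites were searched for bound Su(var)3-7. This heterochromatin protein contains zinc fingers, and its gene was found as a suppressor of variegation. Binding was mapped by chromatin immunoprecipitation and sequencing (ChIP-seq) in whole fly embryos of mixed sex, collected from 0 to 24 h. Transgenic flies made Su(var)3-7 with GFP at its C-terminal end, chromatin was broken by sonication, and the precipitation used an antibody against GFP. The sources used here do not give the promoter of the transgene or the state of the untagged gene. The 3 biological replicates form 1 group, so there was no untreated, untagged or second genotype group to compare with, and the data are peak lists without read counts.

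Most Cpr proteins carry the Rebers-Riddiford consensus, a conserved stretch that binds chitin. Their genes are short, often sit beside one another in tandem groups, and are read in the epidermis and other cuticle-forming cells in short pulses that follow the moulting hormone ecdysone, the embryonic cuticle being laid down late in embryogenesis. In bulk samples of whole embryos, fewer cells with a bound site and less binding per cell cannot be told apart.

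No Cpr gene had a thresholded Su(var)3-7-GFP peak at its start site. A gene was counted when the summit of a peak lay within 500 bp of any of its annotated start sites, and the thresholded list held the 4055 peaks that the authors kept as reproducible. The count was 0 of 70 Cpr genes, which allows a share of up to 4.29%, with a 95% Wilson interval of 0 to 5.20%. Of the 13898 other protein-coding genes, 2577 had such a peak, or 18.5% (17.9 to 19.2%), and over all protein-coding genes the share was 18.4%. These intervals cover the counting of genes only. The 70 genes are not independent either, since they fall into 34 groups along the chromosomes. On the longer list of 30000 pooled relaxed regions, which per the deposited inventory holds peaks and background, 9 Cpr genes had a summit at a start site, or 12.9% (6.91 to 22.7%), against 7237 other genes, or 52.1%, and 51.9% of all protein-coding genes.

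The same count was made in each replicate on its 4055 strongest relaxed regions. It was 0 of 70 Cpr genes in replicate 1, in replicate 2 and in replicate 3. The share of all protein-coding genes was 18.7% in replicate 1, 17.7% in replicate 2 and 18.5% in replicate 3. The difference between Cpr genes and other genes was -18.4 ± 0.541 percentage points (SD, n = 3), and its exact two-sided sign-flip permutation test gave p = 0.25, the smallest value that 3 replicates allow. The design thus cannot reach the usual threshold for p. With a Cpr share of 0 in each replicate, the difference could not be positive, so its shared sign adds no support. Its SD is that of the other genes' share alone and holds no spread of the Cpr count. With all 30000 relaxed regions of a replicate, 9, 14 and 9 Cpr genes had a start-site region in replicates 1, 2 and 3, a mean of 15.2% ± 4.12 (SD, n = 3) against 51.3% ± 0.617 of other genes.

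**Figure D1:**
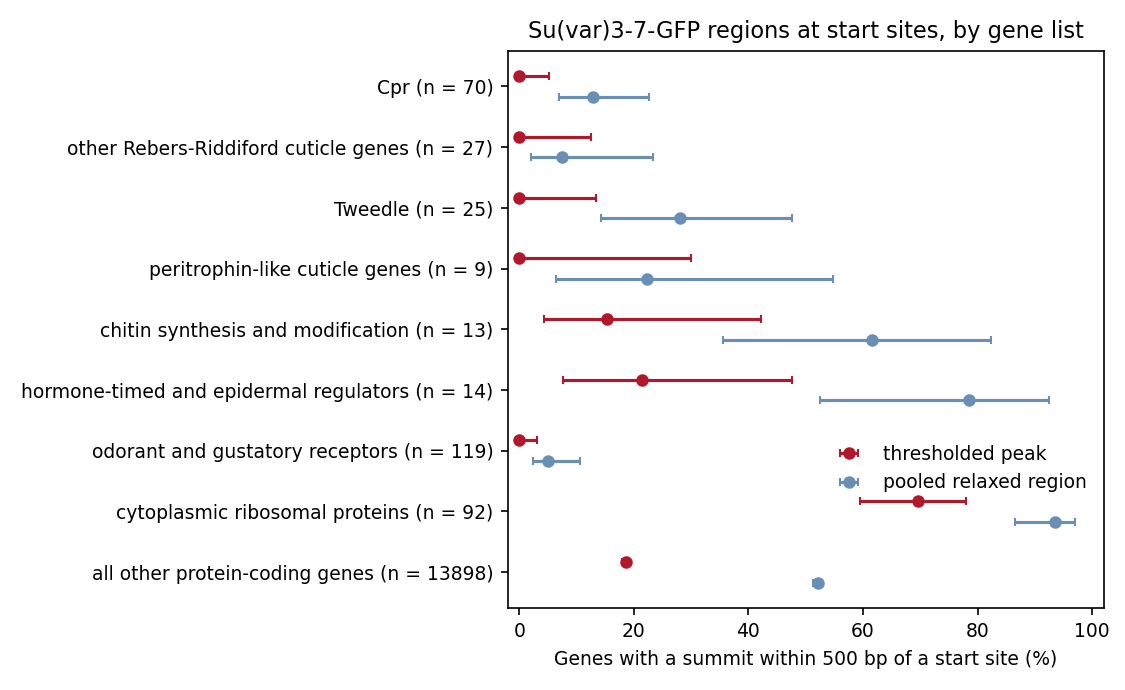
Percent of genes with a Su(var)3-7-GFP summit within 500 bp of a start site, for Cpr genes, 7 other gene lists and all other protein-coding genes; red is the thresholded list, blue the pooled relaxed list, and bars are 95% Wilson intervals. Cpr genes sit at 0 in red and at 12.9% in blue, to the left of all other protein-coding genes at 18.5% and 52.1%.

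The TATA box was common in the core promoters of Cpr genes. The hexamer TATAAA, the box that places the start of transcription, lay wholly between 40 and 15 bases upstream of the start site and on the gene's strand in 34 of 70 Cpr promoters (48.6%), against 7.72% of all 13968 promoters and 2.33% of the 2577 promoters of other genes with a thresholded start-site peak. Each gene's promoter was read at the outermost 5′ end of its annotation, while a peak could count at any start site. Among other genes, 2306 had a thresholded summit within 500 bp of that end, so not all of the 2577 promoters are those with the peak. The initiator core TCAGT lay wholly between 10 bases upstream and 15 bases downstream of the start in 9 Cpr promoters (12.9%), close to the 13.1% of all promoters. The lines that follow give the bases from 100 upstream to 20 downstream of the start site of 5 Cpr genes, 5′ to 3′ on the gene's strand, from the RefSeq dm6 genome, with these matches in capitals. Cpr65Av and Cpr67B are shown because their relaxed regions were the strongest and the nearest to a start site among the members on arm 3L, Cpr78Cc because its downstream neighbour carried one of the strongest thresholded peaks, and Cpr62Bc and Cpr72Ec because each holds both matches. They were chosen with these values known.
Cpr65Av, chr3L:6139955-6140074, minus strand: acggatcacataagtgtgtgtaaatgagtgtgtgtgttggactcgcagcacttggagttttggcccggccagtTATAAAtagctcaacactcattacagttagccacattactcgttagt
Cpr67B, chr3L:9404697-9404816, plus strand: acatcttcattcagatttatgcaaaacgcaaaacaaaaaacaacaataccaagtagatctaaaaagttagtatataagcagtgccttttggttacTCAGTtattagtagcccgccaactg
Cpr62Bc, chr3L:1842065-1842184, minus strand: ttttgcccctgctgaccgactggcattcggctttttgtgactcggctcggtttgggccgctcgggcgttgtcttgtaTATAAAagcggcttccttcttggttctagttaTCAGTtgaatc
Cpr72Ec, chr3L:16367321-16367440, minus strand: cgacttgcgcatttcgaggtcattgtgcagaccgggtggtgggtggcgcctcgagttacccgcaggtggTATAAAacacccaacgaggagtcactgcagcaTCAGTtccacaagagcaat
Cpr78Cc, chr3L:21300480-21300599, plus strand: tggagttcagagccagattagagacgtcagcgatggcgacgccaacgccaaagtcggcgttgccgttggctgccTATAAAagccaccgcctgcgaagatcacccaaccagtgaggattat

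The 9 Cpr genes with a pooled relaxed region had weak regions. Their signal, the authors' own value for each region in an unstated unit, had a median of 53.9 and ran from 40.7 to 94.0. The lowest thresholded peak had a signal of 119, and the pooled list as a whole had a median of 52.9. That all 9 lay under the lowest thresholded peak follows from the count of 0 above. The strongest start-site regions of the 7237 other genes had a median of 89.9 (quartiles 56.4 to 154). The Cpr summits also lay further out, at a median of 393 bp from the start site against 131 bp in other genes, and 2 of 9 (22.2%) were within 200 bp against 65.3%.

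Of the members on chromosome arm 3L, Cpr65Av had the strongest region, with a pooled signal of 94.0, rank 5787 of 30000. Its summit lay 413 bp upstream of the start site, between genes, in chr3L:6140175-6140598. Here and below, between genes means between protein-coding genes, as other genes were not examined. A replicate's region was taken as the same one when its summit lay within 200 bp of the pooled summit, and its signal is given in multiples of the median signal of the replicate's own list, a scale used for all replicate values here. The region reached 1.23 in replicate 1 and 1.89 in replicate 2, and none was listed there in replicate 3. Replicate 3 had a region at 0.861 on the other side of the start site, 204 bp downstream. None of the 3 values reached the strongest 4055 regions, whose lower ends were 1.99, 2.14 and 1.92 in replicates 1, 2 and 3.

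Cpr67B had a pooled signal of 54.5 and a summit 59 bp upstream of its start site, in chr3L:9404526-9404949. The region was listed at 0.809 in replicate 1 and 1.30 in replicate 3, and none was listed in replicate 2. Replicate 1 also had a region at 0.941 further upstream, at position -280 bp from the start site. Cpr67B and Cpr51A were the 2 Cpr genes whose relaxed summit lay within 200 bp of the start site, where most summits of other genes were found. Cpr64Ad had a pooled signal of 57.4 with the summit 439 bp downstream, inside its own coding exon, in chr3L:4215606-4216029, and a region at 0.900 in replicate 2 alone.

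The weaker regions of the arm lay mostly upstream of their genes. Cpr78Cc had a pooled signal of 46.4 at 361 bp upstream, with 0.927 in replicate 2 alone, and in replicate 3 another region at 0.996 lay 227 bp downstream of the start. Cpr72Eb had 45.7 at 481 bp upstream, with 1.18 in replicate 1 alone. Cpr65Au had 44.8 at 458 bp upstream, with 0.704 in replicate 1 and 1.13 in replicate 2. These 3 summits fell between genes, those of Cpr72Eb and Cpr65Au near the edge of the 500 bp window. Cpr65Ec had the lowest pooled signal, 40.7, with its summit 207 bp downstream in its own coding exon and 0.911 in replicate 2 alone.

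On arm 2R, Cpr47Eg had the single Cpr start-site region of the 9 that was listed in all 3 replicates. Its pooled signal was 79.4, rank 7582, with the summit 393 bp downstream of the start site in the coding exon of this short gene, in chr2R:11277840-11278263. The region stood at 0.981, 1.34 and 1.33 in replicates 1, 2 and 3, a mean of 1.22 ± 0.204 (SD, n = 3). Replicate 1 was lower, just under the median of its list, and had a stronger region at 1.22, 130 bp downstream of the start. Cpr51A had a pooled signal of 53.9 with the summit 48 bp downstream of the start, outside coding sequence, in chr2R:14514951-14515374, and reached 0.763 in replicate 1 and 1.04 in replicate 2. Of the other 8 regions, 4 were listed in 2 replicates and 4 in 1. Of all 9 regions, 3 had the summit in the gene's own coding exon and 5 had it between genes.

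Few of these regions recurred. Some relaxed region, not always the same one, was at the start site in all 3 replicates for 2 Cpr genes, Cpr47Eg and Cpr65Av, which is 2.86%, against 38.5% of other genes and 38.3% of all protein-coding genes. In at least 1 replicate it was there for 21 Cpr genes (30%), against 64.5% of other genes and 64.3% of all. The remaining 49 Cpr genes had no region at a start site in any of the 4 relaxed lists. Beyond the 9 genes of the pooled list, 12 had a region in a replicate only, namely Cpr30B, Cpr31A, Cpr35B, Cpr47Ee, Cpr49Ad, Cpr49Ae, Cpr49Af, Cpr65Ay, Cpr65Ea, Cpr72Ec, Cpr73D and Cpr78E, which are named with their values known. The highest of these was Cpr72Ec, at 1.37 in replicate 3 and not listed in the other replicates, followed by Cpr78E at 1.28 in replicate 1 (127 bp downstream of the start) and 0.666 in replicate 2 (204 bp upstream). The best rank of any Cpr start-site region in any replicate was 4986, outside the strongest 4055.

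**Figure D2:**
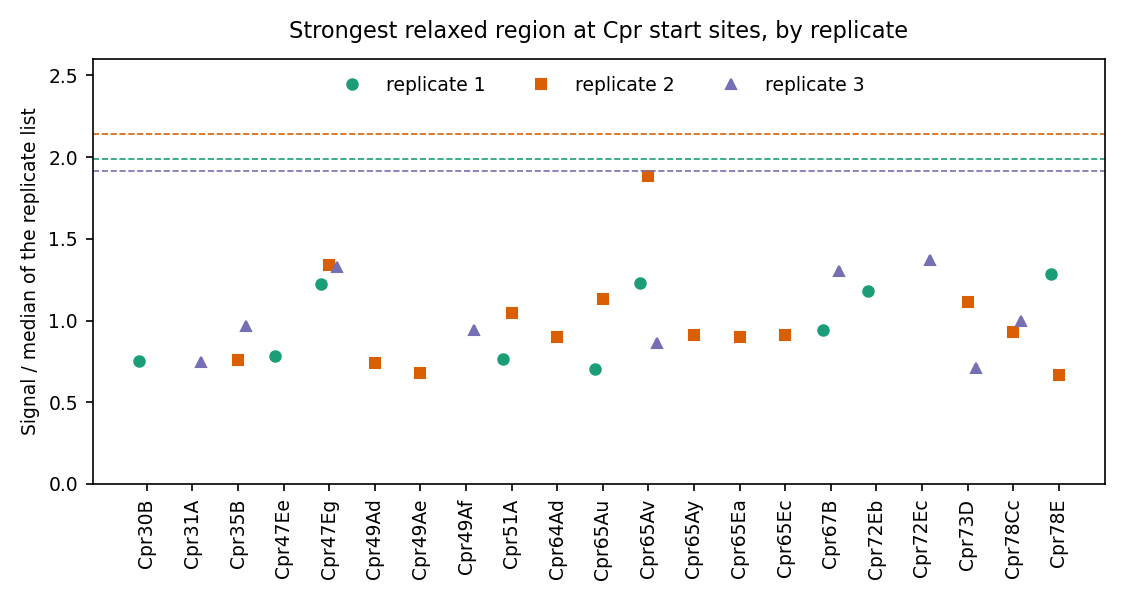
Signal of the strongest relaxed region within 500 bp of a start site, divided by the median signal of the replicate's list, for the 21 Cpr genes with a region in at least 1 replicate; circles, squares and triangles are replicates 1, 2 and 3, whose summits for 1 gene may lie at different places in the window, and dashed lines mark rank 4055 of each replicate (1.99, 2.14 and 1.92). Every point lies under its replicate's line, and only Cpr47Eg and Cpr65Av carry all 3 symbols.

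Thresholded peaks were also far from Cpr start sites beyond the 500 bp window. The nearest thresholded summit lay at a median of 17296 bp from a Cpr start site (quartiles 9272 to 24848 bp, range 676 to 52394 bp), against 7825 bp for other genes (quartiles 1774 to 22588 bp, 13875 genes with a thresholded peak on their chromosome). In the strongest regions of replicates 1, 2 and 3 the Cpr median was 15500, 16902 and 16926.5 bp, a mean of 16443 ± 817 bp (SD, n = 3). Within 1 kb there was a thresholded summit for 1 Cpr gene (1.43%) and 21.6% of other genes, and within 10 kb for 18 Cpr genes (25.7%) and 55.6% of other genes. The upper quartiles were close, 24848 bp for Cpr genes and 22588 bp for others, so the gap between the groups lay in the nearer distances. Relaxed summits lay at a median of 2430 bp from Cpr start sites against 430 bp.

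**Figure D3:**
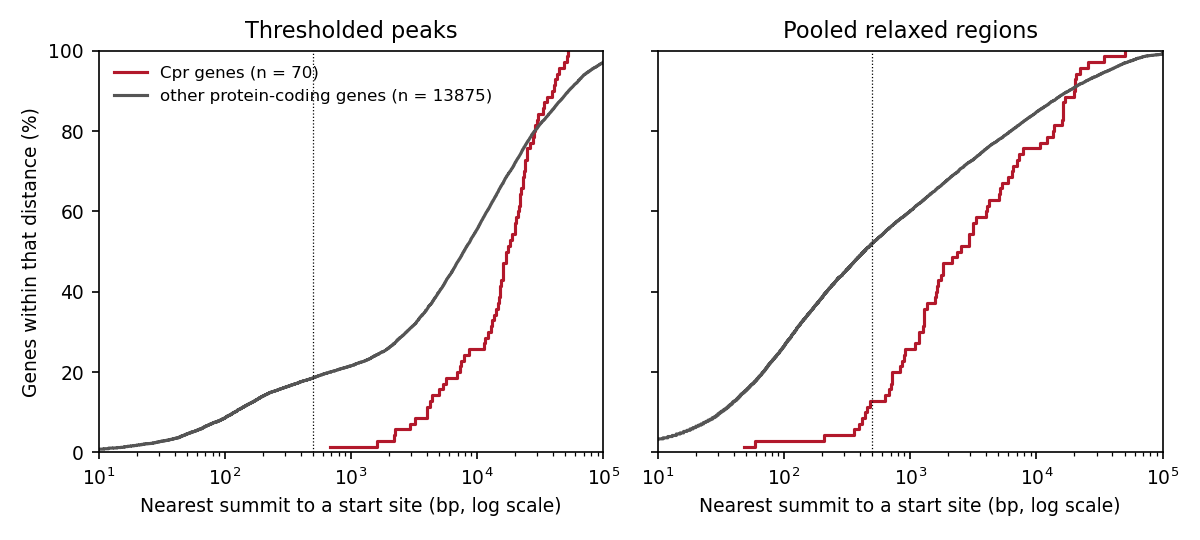
Cumulative percent of genes (vertical axis) against the distance from a start site to the nearest thresholded summit (left) or pooled relaxed summit (right), in bp on a log scale; red is Cpr genes, grey other protein-coding genes, and the dotted line marks 500 bp. The red curve starts at 676 bp on the left, and both pairs of curves come together at the longest distances.

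Along the chromosomes, 47 of the 70 Cpr genes lay in 11 clusters, a cluster being a run of 2 or more Cpr genes with neighbouring start sites at most 20 kb apart, and 23 stood alone. Arm 3L held 35 Cpr genes, 2R held 21, 2L and 3R held 5 each and X held 4. None of the arms had a Cpr gene with a thresholded start-site peak, while between 16.9% and 20.3% of the other genes on these arms had one. The 9 relaxed regions were on 3L (7 genes) and 2R (2 genes). Of the 34 clusters and single genes, 32, with 66 genes, had no thresholded summit anywhere between the first and the last base of their Cpr genes.

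The largest cluster, Cpr49Aa to Cpr49Ah on 2R, held 8 Cpr genes in 38.5 kb and also 7 other genes. A single pooled relaxed summit, with a signal of 40.0, lay in that stretch, at no start site of the 8 genes. The nearest thresholded summit was 20749 bp away from the cluster. Its flanking genes CG13159 and CG13157 had neither a thresholded nor a relaxed start-site region. Cpr47Ea to Cpr47Eg, also on 2R, held 7 Cpr genes in 26.7 kb with 7 relaxed summits, 4 of them in coding exons and the strongest that at Cpr47Eg. The nearest thresholded summit was 5654 bp beyond its end, at the start sites of CG13220 and CG9062. Of its flanking genes, CG43112 had no region and CG9067 had a relaxed one.

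Cpr65Au to Cpr65Az on 3L held 7 Cpr genes in 30.3 kb, interleaved with 11 other genes, most of them larval cuticle genes of the Lcp65A group, which carry the same consensus. It contained 7 relaxed summits, none in a coding exon, and no thresholded one, and none of the 11 genes inside had a thresholded start-site peak. The nearest thresholded summit lay 6422 bp outside, and the flanking genes Lcp65Ag3 and Prdm13 had no start-site region. Cpr65Ax1 and Cpr65Ax2 in this cluster are near-identical copies. In 76.4% and 72.1% of the positions within 500 bp of their start sites, the 31 bases were found more than once in the genome, so regions there may have been lost or split by the read mapping, which was not tested. Such repeats exceeded 10% at these 2 Cpr genes (2.86%) and at 4.40% of all genes.

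**Figure D4:**
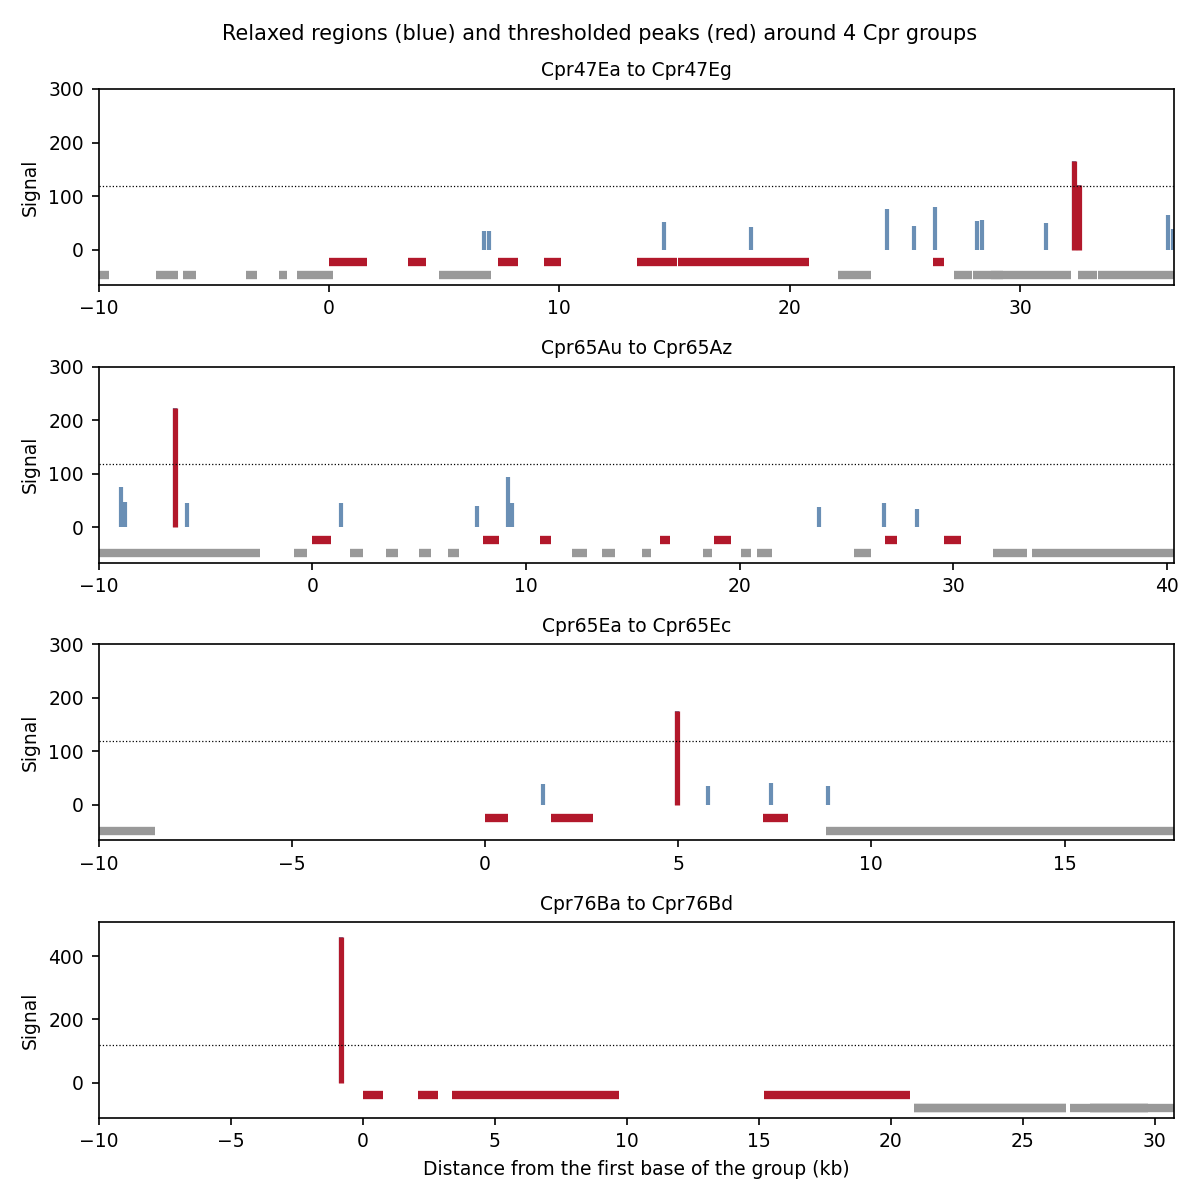
Signal of pooled relaxed regions (thin blue bars) and thresholded peaks (thick red bars) against distance from the first base of 4 Cpr clusters in kb; below the axis zero, red blocks are Cpr genes and grey blocks other protein-coding genes, and the dotted line is the lowest thresholded signal, 119. Thresholded peaks stand outside Cpr47Ea to Cpr47Eg, Cpr65Au to Cpr65Az and Cpr76Ba to Cpr76Bd, and 1 stands between the genes of Cpr65Ea to Cpr65Ec.

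Some of the smaller clusters contained no thresholded or pooled relaxed summit. These were Cpr62Ba to Cpr62Bc (3 genes, 18.0 kb), Cpr76Ba to Cpr76Bd (4 genes, 20.7 kb) and Cpr97Ea to Cpr97Eb (2 genes). The lists of the single replicates were not counted over whole clusters. Cpr64Aa to Cpr64Ad contained 5 relaxed summits in 8.58 kb, 3 of them in coding exons. CG43367, whose span overlaps this cluster, had a thresholded peak at a start site outside it. The cluster Cpr78Ca to Cpr78Cc lay between pzg and CG11309, both of which had a thresholded start-site peak, while the 3 Cpr genes between them had none. Over all clusters and single genes, 6 of 67 distinct flanking genes had a thresholded start-site peak (8.96%), namely Arglu1, ttv, Dys, Pits, pzg and CG11309. This thresholded share was also under the 18.4% of all protein-coding genes. A relaxed start-site region was found for 26 of the 67 flanking genes, against 7246 of all 13968 protein-coding genes (51.9%). The flanking genes were not matched with other genes by layout, and no interval was computed for them.

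In all, 6 thresholded peaks had a summit within 5 kb of a Cpr start site, a distance set after the values were seen. The nearest to a Cpr start site was in chr3L:16956801-16957224, with a signal of 153 and rank 2679. Its summit lay 676 bp into Cpr73D and 426 bp upstream of a start site of Ogdh, which encodes a subunit of the mitochondrial 2-oxoglutarate dehydrogenase. The spans of these genes overlap on opposite strands, and the summit was in an exon of neither. It stood at 2.38, 2.53 and 2.57 in replicates 1, 2 and 3, a mean of 2.49 ± 0.0982 (SD, n = 3). This was the single Cpr gene body with a thresholded summit (1.43%), against 11.2% of other genes.

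Cpr65Eb and Cpr76Ba each had a thresholded peak between protein-coding genes, to which they held the nearest protein-coding start site. By Cpr76Ba the summit was 1600 bp from the start site, beyond the far end of the gene and 820 bp outside the cluster, in chr3L:19516605-19516856. This peak had a signal of 462, rank 362 of 4055, and stood at 7.64, 7.44 and 7.04 in replicates 1, 2 and 3. By Cpr65Eb the summit was 2180 bp upstream of the start site and 2237 bp from that of Cpr65Ec, in chr3L:7090755-7091178. Its signal was 175, rank 2145, and it stood at 2.90, 3.15 and 2.26. In each replicate both ranked within the strongest 4055, as no region at a Cpr start site did. The 121 bases around each summit are shown on the plus strand of dm6, because these are the 2 of the 6 peaks that lay between genes, with matches on either strand to the 5 motifs described further on (TATAAA, the initiator core TCAGT, the element TATCGATA, the repeat GAGAG and the core motif GGTCACACT) in capitals. The first holds 1 match, to TCAGT, and the second none.
Peak by Cpr76Ba, chr3L:19516672-19516792: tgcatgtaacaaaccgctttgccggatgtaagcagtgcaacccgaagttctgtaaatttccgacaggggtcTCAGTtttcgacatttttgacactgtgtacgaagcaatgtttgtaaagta
Peak by Cpr65Eb, chr3L:7090907-7091027: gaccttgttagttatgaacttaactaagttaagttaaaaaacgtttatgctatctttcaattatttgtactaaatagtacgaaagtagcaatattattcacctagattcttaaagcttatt

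The other 3 peaks were nearer to other genes. The strongest, with a signal of 1057 and rank 61, was 4000 bp from the start site of Cpr78Cc but 78 bp from that of CG11309, and stood at 16.7 ± 2.05 over the replicates (SD, n = 3). A peak with a signal of 189 was 4016 bp from Cpr66Cb and 97 bp from the start site of CG7083. A peak with a signal of 218 was 3210 bp from Cpr31A and lay in Pen, an importin gene, 523 bp from its start site.

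Cpr genes differ from most genes in layout, and the comparison was repeated with other genes of like layout, chosen after the first counts were known. A single start site was annotated for 63 Cpr genes (90%) and 73.4% of other genes. Another gene's start site lay within 500 bp for 3 Cpr genes (4.29%) and 31% of other genes. Among genes with 1 start site and no other gene's within 500 bp, 0 of 61 Cpr genes had a thresholded start-site peak, against 579 of 7308 other genes (7.92%), and 9 (14.8%) against 33.9% had a relaxed region. Cpr genes were also short, with a median length of 1094 bp against 2170 bp. Among genes of at most 1894 bp, the upper quartile of Cpr lengths, the thresholded count was 0 of 52 Cpr genes against 12% of 6141 other genes. The relaxed share was 15.4% against 36.9%. The differences were thus smaller between genes of like layout. That of the relaxed shares kept its direction. On the thresholded list the Cpr count of 0 fixed the direction in advance. Start-site layout and length were not matched together, and no interval was computed for these subsets.

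Within gene bodies, where length matters, Cpr genes held 1.16 relaxed summits per 10 kb against 2.40 in other genes, and 0.0643 thresholded summits per 10 kb against 0.264. A relaxed summit lay in the body of 11 Cpr genes (15.7%) and of 48.3% of other genes.

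Other genes of the cuticle were counted by lists of names. The other Rebers-Riddiford cuticle genes, such as the larval Lcp and the pupal Ccp84A genes, had no thresholded start-site peak in 27 members and a relaxed region in 2, Lcp9 (signal 103) and Ccp84Ag (47.5). Tweedle genes, which encode another family of cuticle proteins and include genes that shape the larval body, had none in 25 members and a relaxed region in 7 (28%), led by TwdlG (65.0) and TwdlV (64.7). The peritrophin-like cuticle genes had none in 9 members and relaxed regions at Gasp (43.1), which is used in the tracheal cuticle, and obst-H (34.9). The Wilson interval of a count of 0 reached up to 12.5% for the other Rebers-Riddiford genes, 13.3% for Tweedle genes and 29.9% for peritrophin-like genes, and the last of these holds the 18.4% of all protein-coding genes.

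Genes for the chitin-making and regulating steps gave other counts. Of 13 genes of chitin synthesis and modification, 2 (15.4%, Wilson interval 4.33 to 42.2%) had a thresholded start-site peak and 8 (61.5%) a relaxed region. The peaks were at Cht7, a chitinase gene (signal 218), and mmy, which encodes the enzyme that makes the chitin precursor UDP-N-acetylglucosamine (191). Next came rtv, which is needed to order chitin fibres, with a signal of 118 just under the lowest thresholded peak. Of 14 hormone-timed and epidermal regulators, 3 (21.4%, interval 7.57 to 47.6%) had a thresholded peak. They were Eip75B (521), a nuclear receptor gene induced by ecdysone, EcR (284), the ecdysone receptor, and usp (221), its partner. Both intervals held the 18.4% of all genes. The regulators' share was 35.7% in the strongest regions of replicate 1 and 21.4% in those of replicates 2 and 3, and 11 of the 14 (78.6%, interval 52.4 to 92.4%) had a relaxed region, against 51.9% of all genes. Of these 14 genes, 1 had a single start site, so most had several windows in which a summit could count. With so few genes, and no test of one list against another, these counts are descriptions.

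As families of comparison, the 119 odorant and gustatory receptor genes, which are silent in most cells, had no thresholded start-site peak and a relaxed region in 6 (5.04%). The strongest of these was Gr63a (90.7), followed by Gr21a (53.7), the pair of genes that encode the CO2 receptor. The 92 genes with names of cytoplasmic ribosomal proteins had a thresholded peak in 64 (69.6%) and a relaxed region in 86 (93.5%). That list was made by name alone. It includes paralogs and genes named as like a ribosomal protein, such as RpL22-like and RpL7-like, and is not limited to genes used in every cell. Over the strongest regions of the 3 replicates the ribosomal share was 68.8% ± 2.26 (SD, n = 3), and that of Cpr and receptor genes was 0% in each replicate. Cpr genes thus stood with the receptor genes on the thresholded list. Their relaxed share of 12.9% lay between those of these families. Its Wilson interval (6.91 to 22.7%) overlapped that of the receptor genes (2.33 to 10.6%).

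The promoters were also compared by 5 short motifs anywhere from 250 bases before to 50 after the same 5′ end of each gene, on both strands. TATAAA was found in 49 Cpr promoters (70%) and 45.8% of all promoters, and TCAGT in 42 (60%) and 51.5%. GAGAG, the repeat bound by GAGA factor, was in 23 (32.9%) and 29.7%. The DNA replication-related element TATCGATA, common at broadly used genes, was in 1 Cpr promoter (1.43%), that of Cpr49Af, in 9.36% of all promoters and in 14.5% of the promoters of other genes with a thresholded peak. GGTCACACT, a core promoter motif of broadly used genes, was in 0 Cpr promoters, 6.04% of all and 9.0% of those with a thresholded peak. TATAAA matches counted anywhere include those at the TATA-box position. Matches to a sequence do not show that a factor binds there.

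**Figure D5:**
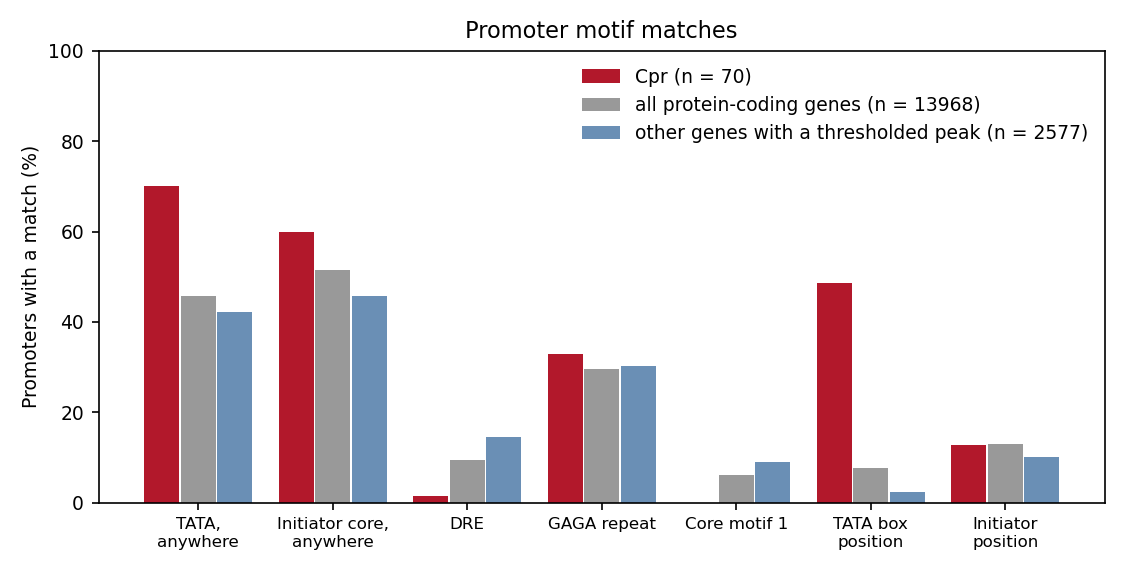
Percent of promoters with a motif match for Cpr genes (red), all protein-coding genes (grey) and other genes with a thresholded start-site peak (blue); the 5 motifs on the left were searched from 250 bases before to 50 after the start site on both strands, the 2 on the right on the gene's strand at the TATA-box and initiator positions. The widest gap is at the TATA-box position, with 48.6%, 7.72% and 2.33%.

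Across all other genes, a TATA box at that position went with fewer thresholded peaks. Of 1044 other genes with the match, 60 (5.75%) had a thresholded start-site peak and 26.1% a relaxed region, against 19.6% and 54.2% of the 12854 without it. Among those with 1 start site the thresholded shares were 4.31% and 14.9%, and the relaxed shares 21.4% and 46.3%. Within the Cpr genes the relaxed regions ran the other way, with 7 of 34 genes with the match (20.6%) and 2 of 36 without (5.56%), and neither class had a thresholded peak. These Cpr counts are small, no interval was computed for them, and a link with the match within the Cpr genes was not tested. Beside the 20.6% of Cpr genes with the match stood 26.1% of other genes with it, and 21.4% of those with 1 start site. Among genes without the match the Cpr share was lower. The windows at the TATA-box and initiator positions were set after the motif counts had been seen. Cpr promoters had a median GC content of 45.5% against 38% in all genes. The median share of a promoter's bases masked as repeats was 9.33% against 15.7%. Whether GC content or repeats moved with the number of listed regions was not tested.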

How the data were processed

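Peak lists of Su(var)3-7-GFP ChIP-seq from 3 biological replicates of whole embryos were used on dm6, in which the summit is the list's start plus its peak offset. Per the deposited inventory texts, the authors listed relaxed regions for each replicate and for the 3 replicates pooled, each against a control, and derived the thresholded list from them by the irreproducible discovery rate. No aligner, peak caller or version is named there or in the labels. The signal of a region is the deposited value, in an unstated unit, used for ranks within a list and, across replicates, as multiples of each list's median. The lists hold no read counts, so depth is unknown, and the control reads were not analysed here. Nothing beyond the replicate numbers says how separate the embryo collections were, so the SD covers the spread between these samples, which may be partly technical.

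The 13968 protein-coding genes and 19630 start sites were those of the BDGP6.54 annotation (Ensembl release 115), and sequence from the RefSeq dm6 genome. Coordinates are 1-based. A gene counted with a summit within 500 bp of any start site, so a summit between close genes counts for each. Shares carry Wilson intervals, and the replicate difference an exact sign-flip permutation test; no test across genes was made. All 200 start-site genes placed in simulated data over 13968 genes were found. A planned search for the Rebers-Riddiford consensus in the proteins was not run, since protein sequence was not used here. Named genes were the Cpr genes with the strongest start-site regions (up to 12, of which 9 had one), the genes at such peaks, the ends and flanks of clusters of 5 or more, and up to 4 members of each other list. The Cpr members and all lists were chosen with earlier results of these data known. The genes beside peaks within 5 kb, the TATA-box and initiator windows, the composition measures, the comparisons by gene layout, the genes with a region in a replicate only, the matching of replicate summits to pooled ones within 200 bp, and the promoters and peaks shown were chosen after values were seen. Scripts ran under Python 3.11.15 with SciPy 1.17.1, pandas 2.3.3 and NumPy 2.4.6; figures were drawn with matplotlib 3.10.9.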

Additional observations from a re-analysis of the deposited data

How the results depend on the processing

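The count of Cpr genes with a thresholded start-site peak was also 0 with a 200 bp window, 1 start site per gene, and each summit given to the nearest gene only. It was 0 as well for the stronger part of the list (2027 peaks), regions that ranked high in all 3 replicates, and without each replicate (0 to 0). These settings narrow the main call or draw on each replicate's strongest regions, where no Cpr gene was counted. They thus had little or no room to return another count. With the settings that widen the call, a 1000 bp window and any overlap of the peak with the window, the count became 1 gene (1.43%, Cpr73D). The share of other genes was 14.0% at 200 bp, 21.5% at 1000 bp, 16.6% with 1 start site per gene, 13.7% with the nearest gene only, 19.97% by overlap, 10.2% for the stronger part, 12.2% for all 3 replicates and 13.8% to 14.1% without 1 replicate. It was 13.9% for other genes with 1 start site, 7.92% for those also isolated and 11.95% for short genes. The 9 Cpr genes with a relaxed region became 2 (2.86%) at 200 bp, 18 (25.7%) at 1000 bp, 12 (17.1%) by overlap and 5 (7.14%) with regions above the list median, and stayed 9 in number with 1 start site per gene or the nearest gene only. The share of other genes was then 38.6%, 60.1%, 56.3% and 40.7%, and 49.4% and 43.9%; it was 44.0%, 33.9% and 36.9% for the 3 layout classes. The difference between Cpr and other genes stayed negative, at -13.6 points at 200 bp, -20.02 at 1000 bp, -10.2 for the stronger part of each replicate's regions, -36.1 with all relaxed regions and -18.7 to -18.2 without 1 replicate. At 200 bp, for the stronger part and without 1 replicate, the sign could not change, as the Cpr share was already 0. The median distance of 17296 bp became 22562 bp with the stronger part of the list, and 18815.5 to 19618 bp without 1 replicate. These lists hold fewer peaks. Clusters held 46 genes at 10 kb and 49 at 50 kb. No paired analysis was possible because the samples form 1 group. The lists give no depth, so a missing region was not detectable in them, which is not absence of binding.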
